A study of Mus musculus with 17 samples.

Results

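Transcription factors that mark the lineage of cardiac fibroblasts (CFs) were examined across the first days after myocardial infarction (MI). The members were 9 genes, *Tcf21*, *Gata4*, *Gata6*, *Tbx20*, *Tbx18*, *Hand2*, *Wt1*, *Nr2f2* and *Meis1*, chosen by name and not by their values, out of the 31053 genes of the count table. Each symbol matched 1 row. All 9 passed the filter on low counts, among 14030 genes tested. The libraries were made by bulk MARS-seq, in which reads come from near the 3′ end of polyadenylated RNA, from GFP+/CD31-/CD45- cells sorted from Collagen1a1-GFP+ mice on the C57BL/6 background. The mice were 8 to 10 weeks old, and all had MI by ligation of the left anterior descending coronary artery. There were 3 libraries each at 1, 2, 4 and 6 days post-infarction (dpi), 4 at 3 dpi and 1 at 5 dpi. Healthy hearts were not analysed here, so every comparison is between days after MI. GFP follows the activity of the collagen promoter, so the sort takes cells that use it, and a change in which cells do so cannot be told apart from a change within cells. Fewer cells of a type and less RNA per cell cannot be told apart in bulk samples either.

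Most CFs descend from the epicardium, the outer layer of the embryonic heart, whose cells detach, move into the muscle and become fibroblasts or mural cells of the vessels. *Tcf21*, a basic helix-loop-helix (bHLH) factor, is needed for the fibroblast branch of that lineage, and *Wt1* and *Tbx18* are expressed in the epicardium itself. *Gata4*, *Gata6*, *Hand2* and *Tbx20* are better known as factors of the cardiomyocyte programme, but adult CFs express them too, a trace of their cardiac origin. *Nr2f2* encodes the nuclear receptor COUP-TFII, which acts in atrial and venous identity, and *Meis1* encodes a homeodomain protein that works with PBX and GATA partners.

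For 7 of the 9 factors the highest and lowest day means were within 0.66 of each other on the log2 scale, and the distance was larger for *Tbx20* and *Wt1*. None of the 9 passed the threshold of an adjusted p of 0.05 in any of 7 comparisons by edgeR's quasi-likelihood test. *Tcf21* had the highest median level of the 9 and *Wt1* the lowest, both in CPM and in CPM per kilobase of exon. The largest step that the libraries separated was a rise of *Tbx20* between 3 and 4 dpi, 2.04-fold, which missed the threshold. *Wt1* had the widest spread, from 1 count to 167 counts per library.

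Total counts per library ran from 8021815 to 22029938, with a median of 14123952. A count of 3 corresponded to between 0.136 and 0.374 CPM, counts scaled to the size of the library. The 10 fibroblast markers summed to between 16100 and 44400 CPM in every library, whereas the 10 endothelial markers did not exceed 186 CPM. The 12 leukocyte markers stayed between 9.81 and 33.8 CPM at 1 and 2 dpi and lay between 46.5 and 232 CPM at 3 dpi. In 10 libraries Y-linked counts exceeded those of *Xist*, and in 7 the reverse held. All 3 dpi libraries were of the first kind and all 4 and 6 dpi libraries of the second, so that in 4 against 3 dpi the day and this pattern cannot be told apart. The labels name the 3 dpi libraries by another scheme than the rest. The study's methods call the replicates biological, but neither they nor the labels tie a library to an animal, so p-values measure the spread between libraries, which may be technical.

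Promoter sequences were matched by symbol in a RefSeq table on GRCm38.p6. Those of *Tcf21*, *Tbx20*, *Tbx18*, *Hand2*, *Nr2f2* and *Meis1* (6 of 9 members) were used. The members *Gata4*, *Gata6* and *Wt1* were not searched, so the motif counts of members do not cover them. Of the 6 used, 3 stretches just upstream of the transcription start are printed 5′ to 3′ on the strand of the gene. They belong to the most abundant member, to the member with the largest separated step between days, and to the member whose upstream bases hold both a GATA and an E-box match. The *Tcf21* stretch is chr10:22820175-22820393 (219 bases, minus strand), the *Tbx20* stretch chr9:24774304-24774553 (250 bases, minus strand) and the *Hand2* stretch chr8:57320733-57320982 (250 bases, plus strand). Capitals mark AGATAA or its reverse complement, a core bound by GATA factors, and CANNTG, the E-box bound by bHLH factors.
Tcf21: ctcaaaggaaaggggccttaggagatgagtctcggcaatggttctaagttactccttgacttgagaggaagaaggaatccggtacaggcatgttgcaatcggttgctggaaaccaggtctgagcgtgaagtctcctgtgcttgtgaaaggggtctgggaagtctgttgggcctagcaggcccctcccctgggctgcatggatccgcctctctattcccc
Tbx20: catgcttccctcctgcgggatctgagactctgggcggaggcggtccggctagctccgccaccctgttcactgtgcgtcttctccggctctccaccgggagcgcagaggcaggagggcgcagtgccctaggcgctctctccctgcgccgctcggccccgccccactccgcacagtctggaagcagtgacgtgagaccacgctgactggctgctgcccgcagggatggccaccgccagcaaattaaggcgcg
Hand2: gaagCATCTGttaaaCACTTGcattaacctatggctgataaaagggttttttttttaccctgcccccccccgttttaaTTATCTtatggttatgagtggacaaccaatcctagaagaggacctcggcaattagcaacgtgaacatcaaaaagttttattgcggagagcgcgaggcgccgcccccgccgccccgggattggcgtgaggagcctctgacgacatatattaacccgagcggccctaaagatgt

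The *Hand2* stretch held 1 AGATAA match and 2 E-boxes, and neither of the other stretches held any of the motifs searched. Other forms of the GATA core, such as the TGATAA in the *Hand2* stretch, were not searched or marked. The search took both strands of 32851 promoters, each from 250 bases before to 50 after the start. AGATAA was found in 11.2% of them and in 2 of the 6 members, *Hand2* and *Tcf21*, whose match lies outside the bases printed. CANNTG was in 72.3% of all promoters and in 4 of the 6, *Hand2*, *Nr2f2*, *Tbx18* and *Meis1*. TGACAG, a core of MEIS proteins, was in 19.2% of promoters and in *Tbx18* alone among the 6. AGGTGT, the core of T-box factors, was in 13.7% of promoters, and TGACCT, a half-site of COUP-TFs, in 16.3%, and 0 of the 6 held either. A match is a string of letters, not a bound site.

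*Tcf21* (ENSMUSG00000045680, chromosome 10, 22817281 to 22820174, minus strand of GRCm38) had between 2287 and 11312 counts per library. Its levels were 339, 448 and 347 CPM at 1 dpi, 458, 601 and 488 CPM at 2 dpi, and 440, 344, 681 and 417 CPM at 3 dpi. They were 321, 331 and 583 CPM at 4 dpi, 238 CPM in the 5 dpi library and 583, 420 and 468 CPM at 6 dpi. The 2 dpi libraries all lay above those of 1 dpi, and the other consecutive days with replicates overlapped. The single 5 dpi library was the lowest of the 17. The step from 1 to 2 dpi was 0.45 on the log2 scale (SE 0.29, 95% interval -0.16 to 1.06), with an adjusted p of 0.86 by edgeR. From 1 to 6 dpi the log2 fold change was 0.37 (95% interval -0.24 to 0.99). Its median level was 440 CPM, or 187 CPM per kilobase of exon, and no other member had a median above 47.1 CPM or 19.7 CPM per kilobase. Reads from the 3′ end need not scale with exon length, so the members between *Tcf21* and *Wt1* were not ranked.

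*Gata4* (ENSMUSG00000021944, chromosome 14, 63198922 to 63271692, minus strand) encodes a zinc finger factor that binds GATA cores and activates early cardiac genes. It had 14.7, 20.4 and 23.2 CPM at 1 dpi, 19.8, 19.3 and 20.1 CPM at 2 dpi, and 25.7, 35.6, 16.6 and 20.5 CPM at 3 dpi. Levels of *Gata4* were 20.9, 25.6 and 27.4 CPM at 4 dpi, 20.3 CPM at 5 dpi and 29.2, 29.5 and 23.4 CPM at 6 dpi. The day means went up in the order of the days from 1 to 6 dpi, leaving out the single 5 dpi library. Among days with replicates, the libraries of consecutive days overlapped. Those of 6 dpi lay above those of 1 and 2 dpi, though by little, the highest at 1 dpi being 23.2 CPM and the lowest at 6 dpi 23.4 CPM. The log2 fold change from 1 to 6 dpi was 0.49 (SE 0.27, 95% interval -0.08 to 1.06, adjusted p = 0.25 by edgeR).

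*Gata6* (ENSMUSG00000005836, chromosome 18, 11052064 to 11085635, plus strand), the closest relative of *Gata4* among the members, was the steadiest across single libraries, with a highest level 1.99 times the lowest. It had 43.3, 41.2 and 44.3 CPM at 1 dpi, 38.1, 48.0 and 41.4 CPM at 2 dpi, and 75.9, 38.2, 73.2 and 57.8 CPM at 3 dpi. The later libraries had 47.1, 39.2 and 57.3 CPM at 4 dpi, 57.1 CPM at 5 dpi and 42.9, 57.2 and 58.3 CPM at 6 dpi. At 3 dpi, 3 of 4 libraries lay above all of 2 dpi, and replicate 2 lay among them. The log2 fold change from 2 to 3 dpi was 0.53 (SE 0.24, 95% interval 0.03 to 1.03, adjusted p = 0.24 by edgeR). Without 3 dpi replicate 2 it was 0.70, at an adjusted p of 0.05 after rounding and just under the threshold. Leaving out that library also raised the number of all genes called at this step from 412 to 733. The exons of *Gata6* overlap a listed antisense gene, 1010001N08Rik, which had 430 counts in all against 12029 of *Gata6*. Whether the counting used strand is not given in the sources used here.

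*Tbx20* (ENSMUSG00000031965, chromosome 9, 24718138 to 24774303, minus strand) encodes a T-box factor that, in the adult heart, maintains cardiomyocyte gene expression. It had 27.5, 40.0 and 46.6 CPM at 1 dpi, 39.0, 47.1 and 57.4 CPM at 2 dpi, and 21.7, 26.9, 41.8 and 45.6 CPM at 3 dpi. At 4 dpi *Tbx20* had 53.6, 61.7 and 92.6 CPM, at 5 dpi 32.8 CPM and at 6 dpi 43.8, 36.4 and 79.2 CPM. All 3 libraries of 4 dpi lay above all 4 of 3 dpi, and the 6 dpi libraries overlapped both. The log2 fold change from 3 to 4 dpi was 1.03 (SE 0.31, 95% interval 0.38 to 1.67), with an adjusted p of 0.081 by edgeR and 0.035 by DESeq2. Testing every gene with at least 1 count gave an adjusted p of 0.011. Leaving out 6 dpi replicate 3, which changes only the shared spread, gave an adjusted p of 0.047, and leaving out 4 dpi replicate 3 gave a log2 fold change of 0.75 and an adjusted p of 0.27. With the share of Y-linked counts as a term, the value was 1.86 and the adjusted p 0.39. Across 3 and 4 dpi this term and the day nearly coincide, and 1 gene was called with it, against 380 without. That fit therefore cannot decide whether *Tbx20* changed.

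Cardiomyocyte markers moved between the same days. Their 10 genes summed to 11.4 to 15.98 CPM at 3 dpi and 61.1 to 105 CPM at 4 dpi, and 6 of the 9 tested were called higher at 4 dpi. They were higher still at 6 dpi, at 122 to 296 CPM, where *Tbx20* had 36.4 to 79.2 CPM. At 1 dpi they summed to 23.0 to 50.7 CPM. The lowest of the 10, *Ryr2* and *Ttn*, were at 0 in 10 and 7 libraries and never above 0.968 and 1.70 CPM. Others went much higher, *Myl2* up to 79.0 CPM and *Mb* up to 59.6 CPM. The part of these markers in the *Tbx20* step was not tested. The change of *Tbx20* from 4 to 6 dpi was -0.38 on the log2 scale (95% interval -1.07 to 0.31).

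*Tbx18* (ENSMUSG00000032419, chromosome 9, 87702800 to 87731260, minus strand), the T-box factor of the epicardium and of mural cells, hardly moved between days. It had 31.1, 19.0 and 32.2 CPM at 1 dpi, 25.5, 34.6 and 31.7 CPM at 2 dpi, and 35.0, 27.3, 39.3 and 23.6 CPM at 3 dpi. It then had 31.5, 33.1 and 26.9 CPM at 4 dpi, 30.4 CPM at 5 dpi and 21.0, 24.1 and 31.8 CPM at 6 dpi. Every pair of days overlapped. The highest and the lowest day mean were 1.21-fold apart, and the log2 fold change from 1 to 6 dpi was -0.10 (95% interval -0.65 to 0.46). The 10 mural markers, in the same libraries, summed to 68.8 to 115 CPM at 1 dpi and 216 to 274 CPM at 6 dpi.

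*Hand2* (ENSMUSG00000038193, chromosome 8, 57320983 to 57324633, plus strand) encodes a bHLH factor that, like *Tcf21*, pairs with E proteins to bind E-boxes. Its levels were 42.0, 55.8 and 46.8 CPM at 1 dpi, 38.7, 46.7 and 46.3 CPM at 2 dpi, and 31.8, 93.5, 35.7 and 49.4 CPM at 3 dpi. Levels of *Hand2* were 41.7, 41.6 and 44.1 CPM at 4 dpi, 28.6 CPM at 5 dpi and 66.5, 90.7 and 49.9 CPM at 6 dpi. The 3 libraries of 6 dpi lay above those of 4 dpi, which spanned only 41.6 to 44.1 CPM, and 3 dpi replicate 2 was the highest of all. The log2 fold change from 4 to 6 dpi was 0.70 (SE 0.32, 95% interval 0.02 to 1.38, adjusted p = 0.23 by edgeR). Over the whole time course the adjusted p was 0.28, and 0.031 without 3 dpi replicate 2. Leaving out that library also raised the number of all genes called over the time course from 2099 to 3462. In the reference annotation its exons overlap those of the antisense gene Hand2os1, which is not among the symbols of the table.

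*Gata4* and *Hand2* were high in the same libraries. The 3 highest *Hand2* levels, in 3 dpi replicate 2 and 6 dpi replicates 2 and 1, came with the 3 highest of *Gata4*. Across the 17 libraries Pearson's r of their log2 levels was 0.62 (permutation p = 0.0081) and Spearman's rho 0.50 (permutation p = 0.045). After Benjamini-Hochberg adjustment over the 36 pairs of members, the adjusted p was 0.21 for r and 0.41 for rho, so the relation did not pass, and neither did any other of the 36. Without the 2 libraries farthest from the median of *Gata4*, r was 0.51. It was 0.62 in the 10 libraries with more Y-linked counts, 0.59 in the 7 with more *Xist* counts and 0.65 after taking out the day means. In 3 dpi replicate 2 *Nr2f2* was also the highest of all libraries and *Meis1* the lowest.

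*Wt1* (ENSMUSG00000016458, chromosome 2, 105126529 to 105173616, plus strand) encodes the zinc finger factor of Wilms tumour, which in the embryonic epicardium promotes the release of migrating cells. It had 6.58, 6.88 and 0.733 CPM at 1 dpi and 0.268, 3.08 and 0.0577 CPM at 2 dpi, the last of these being 1 count and the first 5 counts. At 3 dpi it had 12.1, 3.70, 2.01 and 5.64 CPM. The later libraries had 6.36, 1.21 and 7.05 CPM at 4 dpi, 7.29 CPM at 5 dpi and 2.90, 6.99 and 4.99 CPM at 6 dpi. Low libraries occurred at 1, 2 and 4 dpi beside libraries several times higher, and every pair of neighbouring days with replicates overlapped. The fitted log2 fold change between 1 and 2 dpi was -2.03 (95% interval -4.06 to 0.003, adjusted p = 0.66 by edgeR). From 2 to 3 dpi it was 2.35 (95% interval 0.37 to 4.32, adjusted p = 0.18 by edgeR). For 3 to 5 against 1 and 2 dpi it was 1.35 (adjusted p = 0.25), and without 2 dpi replicate 2, which had 58 counts of *Wt1*, it was 2.71 (adjusted p = 0.023). Testing every gene with at least 1 count gave *Wt1* an adjusted p of 0.0014 from 2 to 3 dpi and 0.014 in 3 to 5 against 1 and 2 dpi.

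Summed without *Aldh1a2*, the other epicardial markers were low in the same early libraries as *Wt1*. From 1 to 2 dpi, 11 of the 12 markers had a negative log2 fold change, with a median of -0.97 against 0.01 for all genes. The other, *Sema3d*, had 0.29. None of the 12 was called, and 1, *Upk1b*, had an unadjusted p under 0.05 (-1.44 on the log2 scale, adjusted p = 0.59 by edgeR). *Aldh1a2*, the enzyme that makes retinoic acid, held much of the list's sum and had a log2 fold change of -0.08. It had 184, 187 and 164 CPM at 1 dpi and 213, 108 and 184 CPM at 2 dpi, so it did not follow *Wt1*. The other 11 markers, a grouping made after their values were seen, summed to 270, 351 and 109 CPM at 1 dpi and to 38.3, 224 and 94.2 CPM at 2 dpi. Over these days, the 3 libraries with the lowest *Wt1* were also the 3 with the lowest sum. At 3 and 4 dpi the sum ran from 65.4 to 269 CPM, and the highest *Wt1* level, 12.1 CPM, came with a sum of 137 CPM. The highest sum, 711 CPM, was in 6 dpi replicate 2, where the mesothelial genes *Upk3b* and *Msln* had 132 and 304 CPM and *Wt1* 6.99 CPM. The part of epicardial cells in the level of *Wt1* was not tested.

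*Nr2f2* (ENSMUSG00000030551, chromosome 7, 70351944 to 70366735, minus strand) had 15.7, 13.4 and 16 CPM at 1 dpi, 15.5, 16.3 and 20.3 CPM at 2 dpi, and 15.1, 26.5, 16.1 and 13.3 CPM at 3 dpi. It had 10.1, 11.2 and 14.1 CPM at 4 dpi, 11.6 CPM at 5 dpi and 13.2, 19.2 and 8.53 CPM at 6 dpi. The day means of 4 and 6 dpi were below those of 1, 2 and 3 dpi, but 4 dpi replicate 3 lay above 3 dpi replicate 4. From 3 to 4 dpi the log2 fold change was -0.59 (SE 0.30, 95% interval -1.21 to 0.02, adjusted p = 0.30 by edgeR).

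*Meis1* (ENSMUSG00000020160, chromosome 11, 18879817 to 19018985, minus strand) had 13.9, 11.8 and 6.64 CPM at 1 dpi, 9.74, 16.2 and 8.65 CPM at 2 dpi, and 11.4, 5.87, 13.2 and 10.0 CPM at 3 dpi. It had 7.66, 12.3 and 12.9 CPM at 4 dpi, 11.9 CPM at 5 dpi and 7.62, 8.18 and 12.3 CPM at 6 dpi. Each day with replicates held a library at or below 8.65 CPM and one at or above 12.3 CPM. The spread of *Meis1* within days, an SD of 0.47 on the log2 scale, was larger than the distance between its highest and lowest day means, 0.27.

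**Figure D1:**
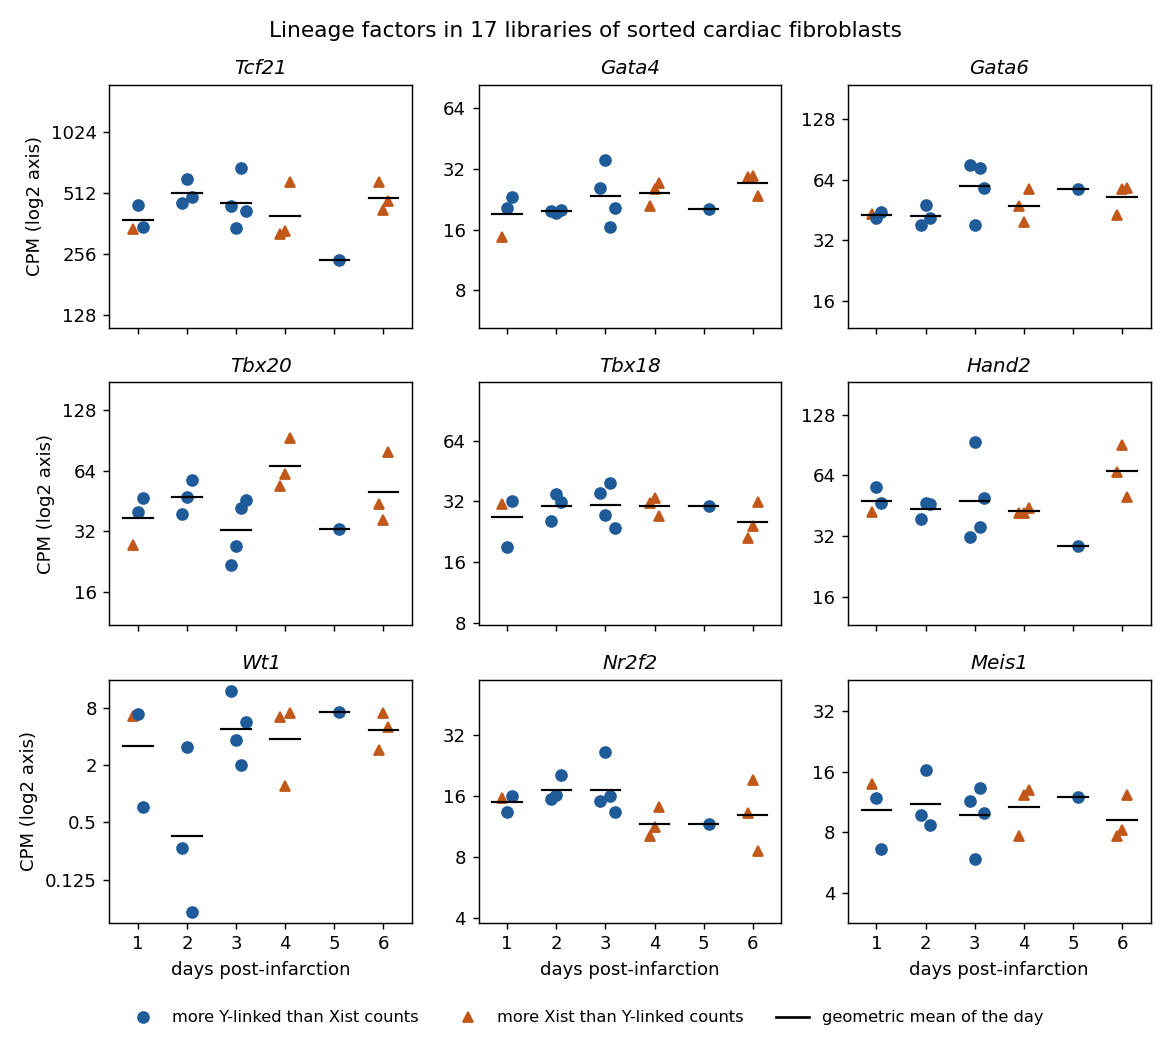
Level of each of the 9 members (y axis, CPM on a log2 axis of equal width in all panels but that of *Wt1*) against days post-infarction (x axis); each point is 1 library, its shape and colour show whether Y-linked or *Xist* counts were higher, and bars are geometric means of a day. *Tcf21* sits between 238 and 681 CPM, the 4 dpi libraries of *Tbx20* lie above those of 3 dpi, and the *Wt1* panel falls to 0.0577 CPM at 2 dpi.

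The members' movement can be read against all tested genes. Ordered by the mean log2 level of each day with replicates, *Tcf21*, *Nr2f2* and *Meis1* were highest at 2 dpi, *Gata6*, *Tbx18* and *Wt1* at 3 dpi, *Tbx20* at 4 dpi and *Gata4* and *Hand2* at 6 dpi. For each member, all 4 pairs of days next to each other in its own order overlapped. The distance between the highest and lowest day mean was 1.05 on the log2 scale for *Tbx20* and 2.95 for *Wt1*. For the other 7 members it lay between 0.27 and 0.66, where the median of all tested genes was 1.03. The share of tested genes with a smaller distance was 1.99% for *Meis1*, 2.15% for *Tbx18*, 9.54% for *Tcf21* and 24.1% for *Hand2*. It was 51.3% for *Tbx20* and 95.8% for *Wt1*. These shares are a description, since genes with few counts scatter more and genes of all levels were pooled.

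Over the whole time course, 15.0% of the tested genes were called by edgeR, and 0 of the 9 members. At that share 1.4 of 9 genes would be called, so a count of 0 does not set the members apart. *Tbx20* alone had an unadjusted p under 0.05 (0.037, adjusted 0.13), and DESeq2 called 0 members. The other adjusted p-values by edgeR ran from 0.28 for *Hand2* to 0.97 for *Meis1*.

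Between 1 and 2 dpi, 0.178% of genes were called and 0 members, none of which had an unadjusted p under 0.05. Libraries that did not overlap between the days were seen for 15.1% of genes and for 1 member, *Tcf21*. Between 2 and 3 dpi, 2.94% of genes were called and 0 members, *Gata6* and *Wt1* having an unadjusted p under 0.05. At that step the libraries of 18.6% of genes did not overlap, but those of all 9 members did.

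From 3 to 4 dpi, 2.71% of genes were called by edgeR and 0 members. 1 member, *Tbx20*, had an unadjusted p under 0.05 and was called by DESeq2. It was also the 1 member without overlap, against 16.7% of genes. From 4 to 6 dpi, 0.513% of genes were called and 0 members. *Hand2* was the 1 member with an unadjusted p under 0.05 and the 1 without overlap, against 21.6% of genes.

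For the whole interval from 1 to 6 dpi, 12.1% of genes were called and 0 members, with 0 at an unadjusted p under 0.05. The libraries of 1 member, *Gata4*, did not overlap, against 32.5% of genes. In the window of 3 to 5 dpi against 1 and 2 dpi, each day weighing the same, 7.48% of genes were called and 0 members, again with 0 at an unadjusted p under 0.05, and the libraries of 2.31% of genes but of 0 members did not overlap. DESeq2 called 0 members at every step other than 3 to 4 dpi. The median log2 fold change of the members was between -0.19 and 0.30 over the 6 pairwise comparisons, and the median of all genes was between -0.03 and 0.04.

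A p that misses the threshold does not show that a level stayed the same, and the intervals give what was left possible. The 95% interval stayed within a log2 fold change of 1 in either direction for 6 of 9 members at each of the 4 steps between days, for 5 of 9 from 1 to 6 dpi and for 8 of 9 in 3 to 5 against 1 and 2 dpi. Leaving out *Wt1*, the bounds from 1 to 6 dpi ran from -0.97 to 1.19, and in 3 to 5 against 1 and 2 dpi from -0.74 to 0.75. For *Wt1* the interval from 1 to 6 dpi was -1.84 to 2.00, that is, from 0.279- to 3.99-fold.

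**Figure D2:**
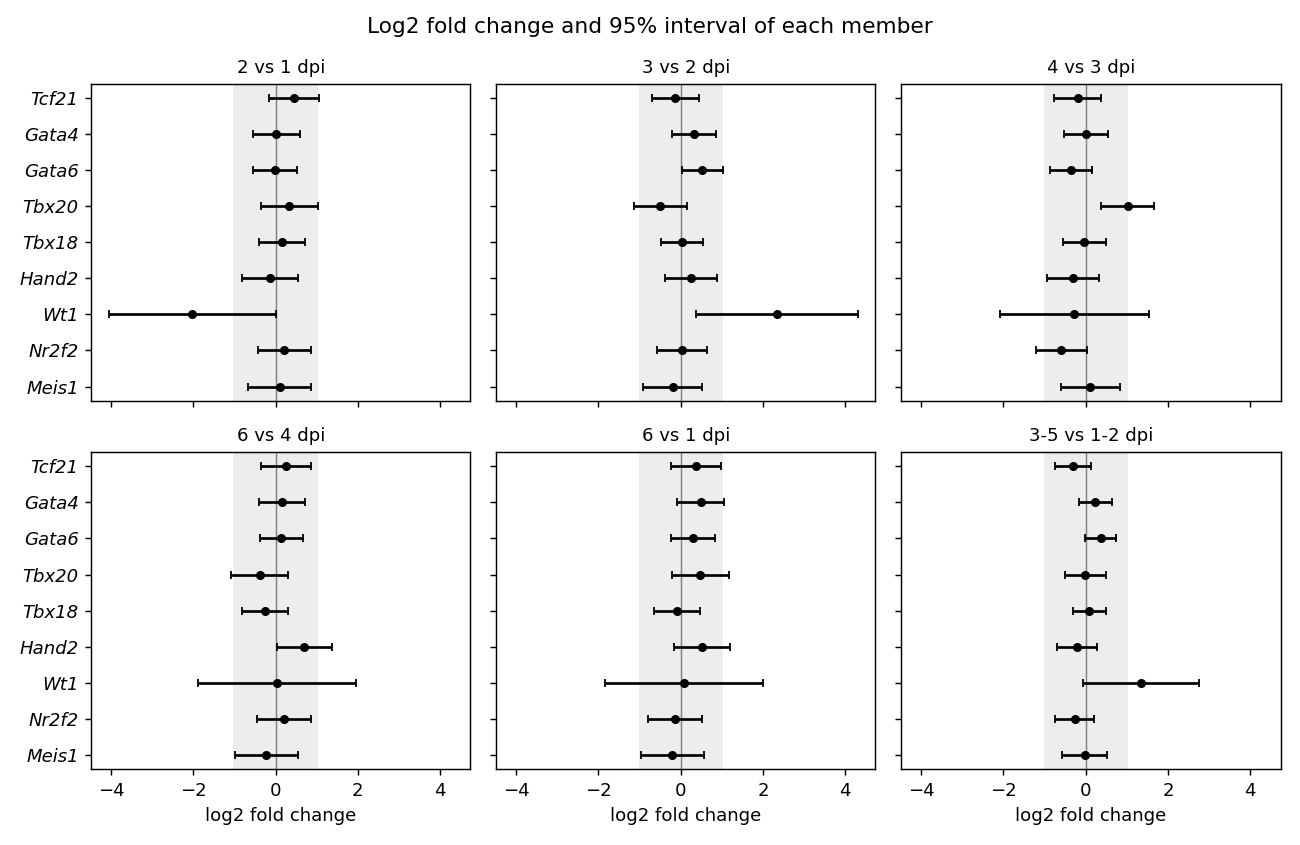
Log2 fold change (x axis) of each member (y axis) in 6 comparisons of days, as point and 95% interval from the edgeR fit to all 17 libraries; the grey band spans -1 to 1 and dpi is days post-infarction. The interval of *Tbx20* at 4 vs 3 dpi runs from 0.38 to 1.67, and those of *Wt1* are the widest in every panel.

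The markers of other cell types varied more between libraries than most members did. Summed epicardial markers ran from 181 to 770 CPM over the 17 libraries, cardiomyocyte markers from 11.4 to 296 CPM and leukocyte markers from 9.81 to 232 CPM. *Ptprc*, the gene of the CD45 protein that was sorted against, was at 0 in 12 libraries, and *Cd3e* was at 0 in all 17. Other leukocyte markers went higher, *Lyz2* up to 124 CPM and *C1qb* up to 44.2 CPM. *Pecam1*, the gene of the CD31 protein that was also sorted against, was at 0 in 0 libraries and ran from 0.779 to 12.8 CPM. The 6 Schwann cell markers stayed between 5.52 and 22.3 CPM. Beyond the values given for *Tbx20* and *Wt1*, the part of these cells in the members' levels was not tested.

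**Figure D3:**
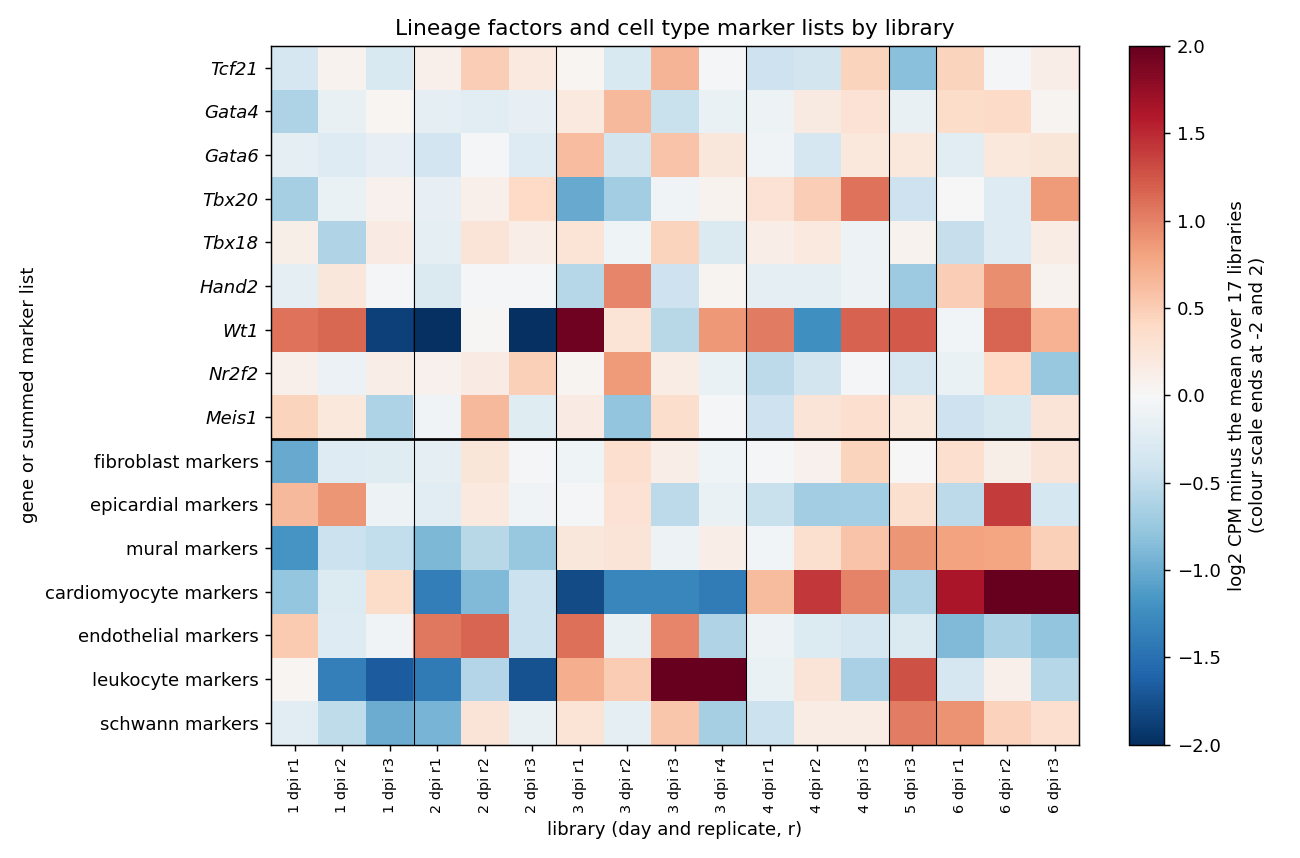
Log2 CPM of the 9 members (upper rows) and of summed marker lists (lower rows) in 17 libraries (x axis, day and replicate), each row minus its own mean, with colours ending at -2 and 2. Rows of members other than *Wt1* stay pale, whereas cardiomyocyte markers go from 11.4 CPM at 3 dpi to 296 CPM at 6 dpi and leukocyte markers peak at 3 dpi.

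The partners and relatives of the members were taken from 6 lists of 39 genes in all, of which 33 were tested. They were the other GATA factors and their FOG cofactors, other T-box factors, *Hand1* with E proteins and Id inhibitors, other COUP-TFs, other MEIS and PBX proteins, and other core cardiac factors. Over the time course 4 of the 33 were called, *Tcf3*, *Id1*, *Tbx2* and *Mef2c*, a share below the 15.0% of all tested genes. Between days, edgeR called 0 in 2 against 1 dpi (0.178% of all genes) and 0 in 6 against 4 dpi (0.513%). It called 1 in 3 against 2 dpi (2.94%) and 2 in 4 against 3 dpi (2.71%). In 6 against 1 dpi it called 2 (12.1%), and in 3 to 5 against 1 and 2 dpi 0 (7.48%). In 4 against 3 dpi the share of partners called was above that of all genes. The counts of called partners, at most 2 between days, are too small to set these lists apart from other genes. These genes are named because they were the ones called, after their values were seen, except *Id1* and *Id3*, which the rule for named genes selects.

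The bHLH list, which holds the direct partners and inhibitors of *Tcf21* and *Hand2*, gave 2 calls among its 7 tested genes over the time course, where 15.0% of all genes were called. *Tcf3*, which encodes the E proteins E12 and E47, had 31.1 to 38.0 CPM over 1 and 2 dpi and 67.4, 75.9, 60.1 and 70.3 CPM at 3 dpi. It had 32.8, 32.0 and 46.0 CPM at 4 dpi, 47.4 CPM at 5 dpi and 56.5, 61.3 and 41.9 CPM at 6 dpi. The 3 dpi libraries stood above those of 1, 2 and 4 dpi. *Tcf3* rose by 0.96 on the log2 scale from 2 to 3 dpi (SE 0.21, adjusted p = 0.018 by edgeR) and fell by 0.89 from 3 to 4 dpi (SE 0.21, adjusted p = 0.029). The rise lost its call in 5 of 27 alternatives, among them each of the 3 that left out a 2 dpi library (adjusted p between 0.054 and 0.11) and the one without 3 dpi replicate 4 (0.052). The fall lost its call in 7 of 26, including those without 3 dpi replicate 1 or 4 (0.061 and 0.063) or without 4 dpi replicate 1 or 2 (0.14 and 0.15). With the share of Y-linked counts as a term, the fall had an adjusted p of 0.64. That fit, in which the day and the term nearly coincide, called 1 gene and cannot decide whether *Tcf3* fell.

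Id proteins lack the basic region and keep E proteins from DNA. *Id1* had 34.5, 35.4 and 35.5 CPM at 1 dpi, 51.1 to 57.5 CPM at 2 dpi and 59.4, 81.7 and 78.0 CPM at 6 dpi. *Id3* had 635, 657 and 627 CPM at 1 dpi, 1220, 1040 and 1210 CPM at 4 dpi and 988, 1320 and 1410 CPM at 6 dpi. The 6 dpi libraries of both genes lay above all those of 1 dpi. From 1 to 6 dpi *Id1* rose by 1.05 on the log2 scale (SE 0.23, adjusted p = 0.0066 by edgeR) and *Id3* by 0.96 (SE 0.29, adjusted p = 0.036). With the share of Y-linked counts as a term the adjusted p was 0.095 for *Id1* and 0.22 for *Id3*. That term also lowered the number of all genes called in 6 against 1 dpi from 1700 to 683. The call of *Id3* was also lost without each of the 1 dpi libraries (adjusted p between 0.092 and 0.11) and without 6 dpi replicate 2 or 3 (0.11 and 0.066). That of *Id1* over the time course (adjusted p = 0.030) was lost in 8 of 26 alternatives, with adjusted p-values up to 0.10, among them those without any 1 of the 1 dpi libraries, 2 dpi replicate 1, 3 dpi replicate 3 or 4, or 6 dpi replicate 2.

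*Tbx2*, a T-box repressor, had 5.32 to 7.42 CPM over 1 and 2 dpi, 10.4, 14.2, 9.29 and 9.36 CPM at 3 dpi and 4.22, 5.83 and 5.34 CPM at 4 dpi. At 6 dpi it had 16.2, 16.7 and 6.61 CPM. *Mef2c*, a MADS-box factor of muscle and endothelium, had 6.38, 6.44, 7.51 and 6.17 CPM at 3 dpi, 14.7, 16 and 12.3 CPM at 4 dpi and 15.8, 14.0 and 23.9 CPM at 6 dpi. Neither call over the time course was firm (adjusted p = 0.048 for *Tbx2* and 0.043 for *Mef2c* by edgeR). The call of *Tbx2* was lost in 17 of 26 alternatives, with adjusted p-values up to 0.14, including those without any 1 library of 1, 2 or 4 dpi, without 3 dpi replicate 1, 3 or 4, or without 6 dpi replicate 1 or 2. The call of *Mef2c* was lost in 13 of 26, with adjusted p-values up to 0.22, including those without replicate 2 of 1 or 2 dpi, replicate 1, 3 or 4 of 3 dpi, replicate 1 or 2 of 4 dpi, or any 1 library of 6 dpi. *Pbx3*, a homeodomain partner of MEIS proteins, had 10.6, 8.53, 10.0 and 10.7 CPM at 3 dpi and 16.4, 21.0 and 19.4 CPM at 4 dpi. Its step of 0.92 on the log2 scale (SE 0.24, adjusted p = 0.042) was lost in 14 of 26 alternatives, with adjusted p-values up to 0.31, including those without 1 dpi replicate 2, any 1 library of 2 or 4 dpi, or 3 dpi replicate 1, 3 or 4.

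**Figure D4:**
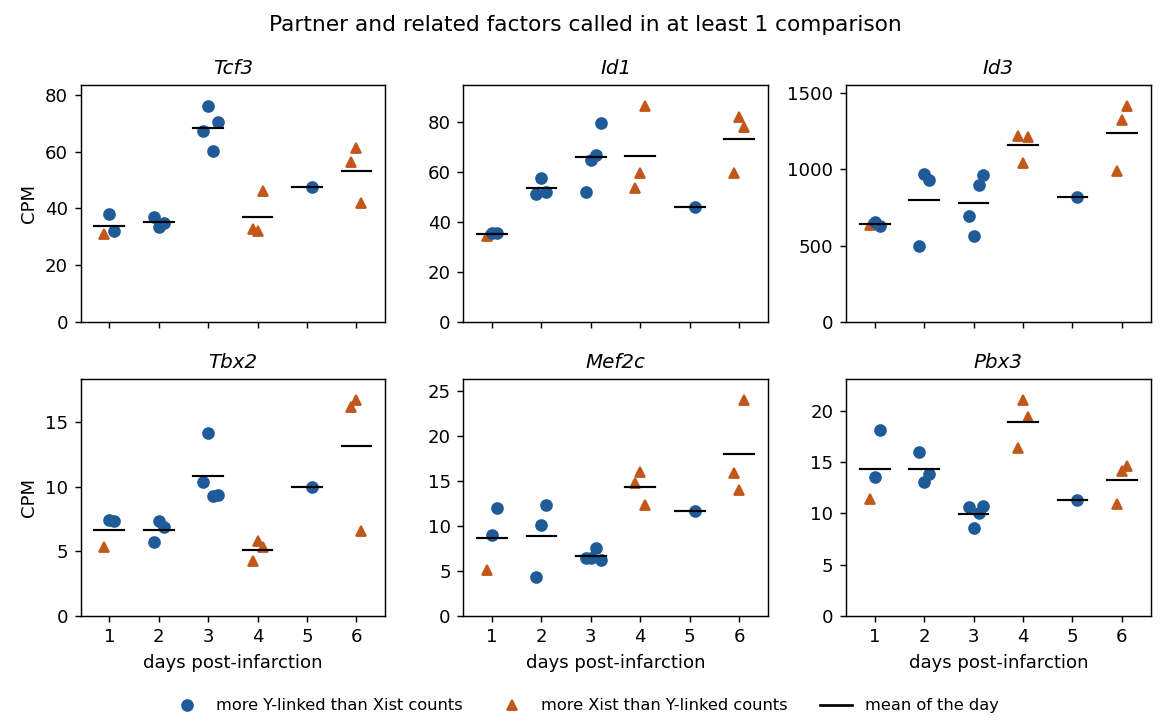
Level (y axis, CPM) of the 6 partner genes called in at least 1 comparison against days post-infarction (x axis); points are libraries, with shape and colour as in the plot of the members, and bars are day means. *Tcf3* reaches 60.1 to 75.9 CPM at 3 dpi, and *Id1* is lowest in the 1 dpi libraries, at 34.5 to 35.5 CPM.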

How the data were processed

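Bulk MARS-seq counts of 17 libraries of sorted CFs were analysed. The authors used bcl2fastq (1.2.4) for demultiplexing, STAR for alignment to mm10 and featureCounts with an Ensembl GRCm38 annotation for counting. The deposited values are raw counts per gene, without normalization, and no removal of PCR copies is stated, so that counts are not independent molecules and floors cover counting error only.

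A gene was tested if 3 or more libraries had 10 or more counts of it (14030 genes), in R (4.3.3) with the quasi-likelihood F-test of edgeR (4.0.16) after TMM normalization. Day was a factor of 6 levels over all 17 libraries, without a block, and p-values were adjusted over all tested genes by the Benjamini-Hochberg method (threshold 0.05). The standard error is the size of the log2 fold change divided by the square root of F. The single 5 dpi library entered the mean of 3 to 5 dpi and the shared spread, and was not tested alone. Levels are CPM on TMM-scaled totals, and log2 CPM with a prior count of 2. DESeq2 (1.42.0) was an alternative, beside the normalization, filter, robust spread, replicate block, share of Y-linked counts as a term, subsets of libraries and 16 fits that each left out 1 library. The test was run on simulated counts in which 200 genes changed at 6 dpi and all genes had the same spread. That simulation left out differences in spread between genes and the split by Y-linked and *Xist* counts, so it does not cover these. Positions and exon lengths are from GENCODE vM21 (GRCm38), another release than the one counted on. The members and gene lists were chosen with earlier results of these data known. By rule, partner genes are named where called from 1 to 6 dpi or in 3 to 5 against 1 and 2 dpi, at most 4 in each direction. The other called partners are named after their values were seen.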

Additional observations from a re-analysis of the deposited data

How the results depend on the processing

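The counts of members called by edgeR were 0 in all 7 comparisons, and stayed at 0 in 70 of 77 combinations of comparison and setting, and in 108 of 112 that left out a library. With every gene of at least 1 count tested, 2 members were called over the time course (*Tbx20* and *Wt1*) and 1 each in 3 against 2 dpi (*Wt1*), in 4 against 3 dpi (*Tbx20*) and in 3 to 5 against 1 and 2 dpi (*Wt1*). Among all genes, that setting moved the calls from 255 up and 157 down to 615 and 365 in 3 against 2 dpi. In 4 against 3 dpi they went from 228 and 152 to 398 and 468, and in 3 to 5 against 1 and 2 dpi from 736 and 314 to 980 and 506. DESeq2 called 1 member in 4 against 3 dpi, where it called 437 genes up and 442 down. The replicate block gave 1 over the time course (*Tbx20*, adjusted p = 0.012) and 1 in 4 against 3 dpi (*Tbx20*, 1.21 on the log2 scale, adjusted p = 0.018), and 0 in the other 5. The cause of these differences was not tested. The numbers do not pair the libraries, since the mean correlation of deviations was 0.009 for 30 pairs with the same number and -0.006 for 72 others. Leaving out 1 library gave between 0 and 1 members called, the 1 being *Hand2* over the time course and *Gata6* in 3 against 2 dpi (both without 3 dpi replicate 2), *Tbx20* in 4 against 3 dpi (without 6 dpi replicate 3) and *Wt1* in 3 to 5 against 1 and 2 dpi (without 2 dpi replicate 2). No member that an alternative called had the opposite sign there. For members without a call, changes of sign were not counted, so their directions may differ between settings. The background moved more. The number of genes called over the time course was 2099 (1077 to 3757 over the alternatives, 1312 to 3462 leaving out a library). It was 25 in 2 against 1 dpi (6 to 153, and 13 to 32), 412 in 3 against 2 dpi (174 to 1042, and 48 to 733) and 380 in 4 against 3 dpi (1 to 879, and 121 to 722). In 6 against 4 dpi it was 72 (15 to 882, and 3 to 1401), in 6 against 1 dpi 1700 (683 to 2427, and 764 to 2580) and in 3 to 5 against 1 and 2 dpi 1050 (767 to 1555, and 779 to 1601). The members' day levels under 2 other scalings (108 values) moved by less than the spread between libraries. The partner genes were run through the same alternatives, which was decided after seeing the data. Depth limits *Wt1*, whose 1 count at 2 dpi is under the floor of 3 counts, and the single 5 dpi library has no error.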
